A study of Mus musculus with 9 samples.

Results

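The Hippo-YAP genes described here are 10 genes: the coactivators Yap1 and Wwtr1 (whose product is also called TAZ), the DNA-binding partners Tead1, Tead2, Tead3 and Tead4, and the target genes Ccn1, Ccn2, Amotl2 and Lats2. Their members were all peaks of the PLAGL1 and H3K4me3 lists that the authors' annotation gives to one of these gene names, plus the KLF4 consensus sites that overlapped such a peak or lay within 20 kb of one. That gave 5 of 3463 PLAGL1 peaks, 21 of 16251 H3K4me3 peaks and 25 of 21130 KLF4 sites, or 51 of 40844 regions in all. The rule uses gene names and positions, not values, although the 10 genes were picked with earlier results of these data known. Ccn2 contributed none of the 51, and Yap1 contributed 1 H3K4me3 peak and nothing else.

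In the Hippo pathway a chain of kinases ending in LATS1 and LATS2 phosphorylates YAP and TAZ and keeps them out of the nucleus. When the kinases are inactive, YAP and TAZ enter the nucleus and bind TEAD factors at enhancers and promoters. Ccn1 and Ccn2, which encode secreted matrix-associated proteins, are standard targets, and Amotl2 and Lats2 are targets that act back on YAP as inhibitors. In skeletal progenitors the pathway is known for responses to mechanical load, matrix stiffness and cell density.

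The cells were mouse periosteal stem and progenitor cells from the angle of the mandible, dissected at 8 weeks of age, and each library was made by CUT&Tag, which releases DNA next to an antibody-bound protein, after 3 days of osteogenic induction with ascorbic acid, beta-glycerophosphate and dexamethasone. KLF4-FLAG was profiled in 3 libraries of Plagl1-deficient cells (genotype Ctsk-iCre;Plagl1fl/fl), where a recombinase under the Ctsk promoter removes the imprinted zinc-finger factor Plagl1 from cells that use that promoter, and in 3 libraries of control cells (Plagl1fl/fl). PLAGL1-HA and its IgG control were 1 library each, both from Plagl1fl/fl cells given a lentivirus for HA-tagged Plagl1, and H3K4me3, a mark of promoters, was 1 library from Plagl1fl/fl cells with no virus named. Both tagged factors were overexpressed from lentivirus at a multiplicity of 10, so binding of the cells' own PLAGL1 and KLF4 was not measured, and the vector names given for the KLF4 treatment run from Klf4 to Klf9 although every title names KLF4. Separate animals are not named for the replicates, so p-values measure only the spread between these libraries, which may be technical. Library depths are unknown. H3K4me3 peaks near a transcription start site (TSS) were present at 9 of 9 mesenchymal and periosteal marker genes (median score 466), 3 of 5 osteoblast genes, 5 of 5 macrophage and blood cell genes (median score 214), 1 of 4 endothelial genes, and 0 of 3 epithelial and 0 of 3 muscle genes. The part of blood-lineage cells in the results below was not tested.

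The promoters on which the factors were or were not found are shown first, as the 250 bases before the outermost annotated start of each gene, from RefSeq (GRCm38.p6). Entries matched 7 of the 10 genes. Those of Wwtr1 (chr3:57575911-57576160, minus strand), Tead3 (chr17:28350806-28351055, minus strand) and Amotl2 (chr9:102717554-102717803, plus strand) are shown because all 3 genes had PLAGL1 and KLF4 at the promoter, and that of Lats2 (chr14:57746124-57746373, minus strand) because it had KLF4 alone. Those of Yap1 (chr9:8004597-8004846, minus strand), Ccn1 (chr3:145649986-145650235, minus strand) and Tead2 (chr7:45215542-45215791, plus strand) are shown because neither factor lay over them. Capitals mark the TEAD motif GGAATG and the KLF motif GGGNGTG on either strand.
Wwtr1: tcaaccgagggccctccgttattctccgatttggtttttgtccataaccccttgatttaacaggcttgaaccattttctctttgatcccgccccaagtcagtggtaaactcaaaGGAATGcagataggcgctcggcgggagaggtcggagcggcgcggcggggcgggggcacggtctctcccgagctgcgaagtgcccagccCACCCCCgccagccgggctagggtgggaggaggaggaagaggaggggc
Tead3: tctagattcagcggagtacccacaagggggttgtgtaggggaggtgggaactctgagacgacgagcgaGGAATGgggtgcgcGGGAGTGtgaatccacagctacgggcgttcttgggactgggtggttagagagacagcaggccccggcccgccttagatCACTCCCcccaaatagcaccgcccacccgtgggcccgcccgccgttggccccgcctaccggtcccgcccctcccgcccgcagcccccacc
Amotl2: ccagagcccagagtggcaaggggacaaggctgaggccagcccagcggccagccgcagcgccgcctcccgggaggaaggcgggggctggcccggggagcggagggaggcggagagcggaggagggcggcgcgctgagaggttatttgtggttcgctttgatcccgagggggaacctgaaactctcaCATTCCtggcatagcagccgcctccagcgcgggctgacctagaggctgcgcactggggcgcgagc
Lats2: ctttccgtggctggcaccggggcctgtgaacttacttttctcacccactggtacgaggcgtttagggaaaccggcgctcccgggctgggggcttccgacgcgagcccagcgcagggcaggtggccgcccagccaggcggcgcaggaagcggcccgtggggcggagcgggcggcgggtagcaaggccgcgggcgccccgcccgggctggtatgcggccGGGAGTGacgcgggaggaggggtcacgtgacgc
Yap1: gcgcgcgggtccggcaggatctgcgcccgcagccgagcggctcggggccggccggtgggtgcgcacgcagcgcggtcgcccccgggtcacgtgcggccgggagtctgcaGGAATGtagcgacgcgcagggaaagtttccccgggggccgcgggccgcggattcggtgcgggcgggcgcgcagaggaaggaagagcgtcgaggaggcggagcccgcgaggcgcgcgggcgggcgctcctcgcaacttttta
Tead2: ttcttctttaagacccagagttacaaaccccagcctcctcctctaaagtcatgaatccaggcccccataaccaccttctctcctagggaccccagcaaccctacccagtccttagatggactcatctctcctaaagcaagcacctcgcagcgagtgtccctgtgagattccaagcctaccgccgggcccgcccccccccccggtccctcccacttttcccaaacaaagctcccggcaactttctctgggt
Ccn1: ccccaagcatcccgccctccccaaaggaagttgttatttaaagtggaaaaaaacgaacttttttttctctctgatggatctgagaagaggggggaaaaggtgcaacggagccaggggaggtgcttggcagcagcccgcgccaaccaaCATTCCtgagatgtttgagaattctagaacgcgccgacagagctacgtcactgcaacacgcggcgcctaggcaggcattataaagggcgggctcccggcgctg

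The letters GGAATG or their reverse complement occurred in 5 of the 7 promoters with an entry, those of Yap1, Wwtr1, Tead3, Ccn1 and Amotl2, each with 1 match. Among the outermost promoters of 17492 protein-coding genes 11.6% held such a match, and among those of 9008 H3K4me3-marked genes 10.6%. In Yap1 and Wwtr1 the matches sat at nearly the same place, 141 to 136 and 136 to 131 bases before the start. Ccn1 had its match 103 to 98 bases and Amotl2 65 to 60 bases before the start, both on the opposite strand, and Tead3 182 to 177 bases before it. The KLF letters GGGNGTG were found in 3 of 7 promoters (Wwtr1, Tead3 and Lats2; 28.4% of protein-coding genes), the longer GGGTGTGG in 0 of 7 (3.35%) and the PLAGL1 palindrome GGGGCCCC in 0 of 7 (1.07%). With the outermost start taken as the same in GRCm38.p6 and mm39, these 3 promoters with GGGNGTG were all covered by a KLF4 site, as was that of Amotl2, which lacked the letters. Any GGGTGTGG also holds a GGGNGTG, no matches overlap one another in the 7 windows, and a match describes letters only.

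The H3K4me3 library answers which of the genes carried a promoter mark at their start. A peak lay within 3 kb of the TSS of 9 of the 10 genes, against 51.3% of 21900 protein-coding genes. Scores are the authors' own and rank peaks within 1 list only.

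The coactivator Yap1 had a peak of score 1035 at chr9:8002778-8004979 (mm39), 2202 bp wide and centred 719 bp inside the gene. Its partner in function, Wwtr1, had a score of 729 at chr3:57481312-57483907 over 2596 bp. The median of the highest-scored TSS peak over all 11229 marked protein-coding genes was 850, so Yap1 lay above it and Wwtr1 below. A further 2 weak H3K4me3 peaks lay in Wwtr1 introns, with scores of 51 in intron 4 and 45 in intron 2, but were annotated to the nearest starts of Tm4sf4 and Gm16016 and are not among the 21.

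All 4 TEAD genes, which encode the factors that bring YAP and TAZ to DNA, were marked. Tead4 (1060, chr6:128276467-128278099) and Tead3 (1045, chr17:28567402-28570252) scored higher than Tead2 (744, chr7:44865128-44866194) and Tead1 (702, chr7:112277834-112279534). Tead1 had a second peak of score 310 starting 1210 bp after the TSS. Its weaker peaks lay 58526 bp before the TSS (score 133) and 18311 bp after it, in intron 1 (37). With 1 library the order of these scores has no replicate check.

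Of the target genes, Ccn1 and Amotl2 had lower scores than any of the coactivator and TEAD genes, and Lats2 lay among them. Lats2, the kinase that phosphorylates YAP, had a score of 837 at chr14:57982103-57984160. Amotl2, an angiomotin family member that binds YAP, had 478 at chr9:102594536-102598216. Ccn1 had 3 separate peaks near its start rather than 1, with scores of 181, 179 and 86. They were centred 2808 bp before, 737 bp after and 1308 bp before the TSS, and the strongest of them lay at the 11.5th percentile of TSS peaks of marked genes.

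Ccn2 had no peak under its own name in either list. In the GRCm38.p6 annotation its locus overlaps a long non-coding RNA gene, Gm15270, and an H3K4me3 peak at chr10:24471333-24473634 (mm39) was annotated to Gm15270, with its centre 782 bp from that start. It scored 741 over 2302 bp, at the 56.4th percentile of the list by score. This peak was looked up after the absence of Ccn2 was seen, and it is left out of all counts of the 10 genes. A KLF4 site lay inside it (chr10:24471435-24472459), with a mean log2 CPM of 5.33 in the authors' deposited table, and 0 PLAGL1 peaks were annotated to Gm15270.

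The mark was wide at several of these genes while its score was not high. Widths of the highest-scored TSS peak were above the median of all marked genes in 7 of 9 genes and above the 90th percentile in 4 of 9, Amotl2, Tead3, Wwtr1 and Yap1. Amotl2 was widest at 3681 bp (99.8th percentile of 11229 genes), then Tead3 at 2851 bp (97.9th) and Wwtr1 at 2596 bp (96.5th). Scores were above the median in 3 of 9. The median width over all marked genes was 1323 bp. Ccn1 fell below it by its peak centred 2808 bp before the TSS (score 181, 1273 bp). The Ccn1 peak over the start itself scored 179 and was 1929 bp wide.

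**Figure D1:**
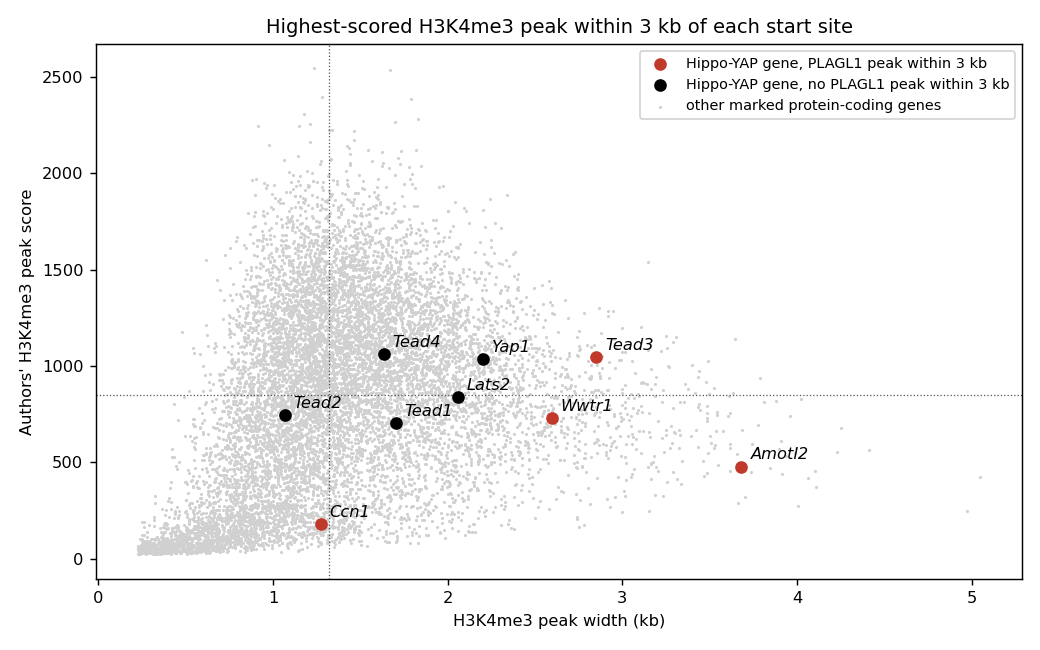
Width in kb (x axis) and authors' score (y axis) of the highest-scored H3K4me3 peak within 3 kb of the TSS, 1 point per protein-coding gene, with red for Hippo-YAP genes that have a PLAGL1 peak within 3 kb, black for those that have none, grey for other genes and dotted lines at the medians. Amotl2, Tead3 and Wwtr1 are the 3 widest of the 9 genes and all carry PLAGL1, while Ccn1 (score 181), which also carries it, lies low and near the median width. The Ccn1 point is its peak centred 2808 bp before the TSS, and its peak over the start (score 179, 1929 bp) is not drawn.

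PLAGL1 binding was then set against these marks. Of the 10 genes 4 had a PLAGL1 peak no farther than 3 kb from the TSS, Wwtr1, Tead3, Ccn1 and Amotl2, against 5.82% of protein-coding genes and 10.3% of those marked with H3K4me3. The authors called these peaks against the IgG library, per the file name.

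The strongest of the 5 peaks were at a TEAD gene and a coactivator. At Tead3 a peak of score 51 (chr17:28569942-28570200, 292 bp before the nearest annotated start) lay in the promoter. At Wwtr1 a peak of score 50 (chr3:57483249-57483444) sat 15 bp before the TSS. These lay at the 73.2nd and 70.4th percentiles of the 3463 PLAGL1 scores, whose median was 40 and whose maximum was 402.

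The remaining 3 peaks were close to the lowest score in the list, 20. Ccn1 had a peak of score 22 (chr3:145358195-145358325), which lay upstream of the promoter, 2520 bp before the TSS and inside the strongest of its 3 H3K4me3 peaks. Amotl2 had one of score 21 (chr9:102594586-102594726) at 347 bp before the TSS, and Tead3 a second one of score 21 (chr17:28560115-28560327) in intron 2, 9099 bp after the start. Yap1, Tead1, Tead2, Tead4, Ccn2 and Lats2 had no PLAGL1 peak under their names. With a score at or above the list's median required, 2 of the 10 genes remained, Tead3 and Wwtr1.

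The 3 genes with PLAGL1 in the promoter class (Wwtr1, Tead3 and Amotl2) were the 3 with the widest H3K4me3 peaks. Ccn1, with PLAGL1 within 3 kb but outside that class, had a leading peak of 1273 bp, below the median of 1323 bp. Across all marked protein-coding genes PLAGL1 within 3 kb went with width. It was present at 18.3% of genes in the widest of 4 equal groups and at 4.19% in the narrowest. The median width was 1627 bp with PLAGL1 and 1294 bp without. On the same reading of the outermost start, the Wwtr1 peak covered 113 bases before to 82 after it, so 112 bases of the printed promoter lay under it. The Tead3 peak covered 421 to 163 bases before its outermost start, or 87 printed bases, and included the GGAATG match. The Amotl2 peak lay beyond the printed bases, 417 to 277 before the start.

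All 5 PLAGL1 peaks overlapped an H3K4me3 peak, against 48.7% of all PLAGL1 peaks, and all 5 overlapped a KLF4 site, against 62.4%. All 5 overlapped both at once, against 44% of all PLAGL1 peaks. Even the intronic Tead3 peak lay over a weak H3K4me3 peak of score 42. Members that share a gene are not independent, and no test was made of these counts.

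**Figure D2:**
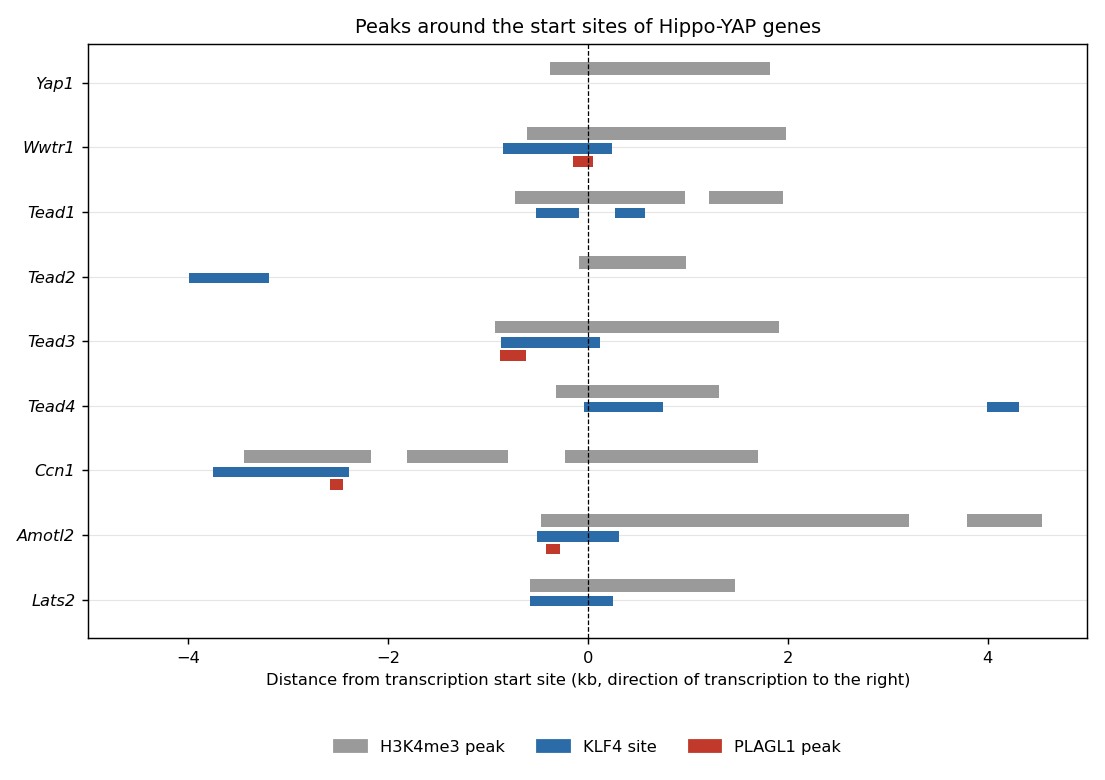
Peaks and sites from 5 kb before to 5 kb after the TSS (x axis in kb, transcription to the right) for the 9 genes with members, 1 row per gene, with H3K4me3 in grey, KLF4 in blue and PLAGL1 in red. Each red bar lies over a blue one, Yap1 has grey only, and at Ccn1 the red and blue bars lie over the H3K4me3 peak centred 2808 bp before the TSS.

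KLF4, a Krüppel-like zinc-finger factor, was found at most of the same starts. In 7 of the 9 marked genes a KLF4 site overlapped the H3K4me3 peak within 3 kb of the TSS, against 68.5% of all marked protein-coding genes, so the share was near that of other genes. The exceptions were Yap1 and Tead2. Yap1 had no KLF4 site nearer than 131 kb from its TSS, and Tead2 had 1 site ending 3191 bp before its TSS.

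Levels of KLF4 signal are given as the mean log2 CPM over the 6 libraries in the authors' deposited table. Among TSS sites Tead3 had 6.31 (chr17:28569201-28570192) and Wwtr1 6.001 (chr3:57483056-57484144) in the authors' deposited table. Tead4 had 5.71 (chr6:128277024-128277818), Amotl2 5.47 (chr9:102594498-102595311) and Lats2 5.42 (chr14:57983328-57984160) there. Tead1 had a pair of weaker sites on either side of its start, with 4.38 (chr7:112278045-112278470) and 4.50 (chr7:112278830-112279138) in the authors' deposited table. The KLF4 site of Ccn1 in the authors' deposited table was strong, at 6.13, but lay upstream with PLAGL1 (chr3:145358133-145359495), and no KLF4 site overlapped the peak over the Ccn1 start itself. The median over all sites of the authors' deposited table was 5.08.

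The 4 strongest KLF4 sites of these genes were all shared with PLAGL1. The 5 KLF4 sites over a PLAGL1 peak had mean log2 CPM from 5.47 to 6.31 (median 6.11) in the authors' deposited table, and the other 20 had 3.60 to 5.79 (median 4.81). Of the 5, only Amotl2 lay within the range of the 20. Over all KLF4 sites of the authors' deposited table the medians were 6.08 over PLAGL1 and 5.01 elsewhere, so the same order held across the series. H3K4me3 moved with this split: all 5 shared sites also lay over H3K4me3, as did 11 of the 20 others. Those 11 had a median of 4.81 in the authors' deposited table, against 4.82 for the 9 over neither. Over all sites of the authors' deposited table the medians were 6.31 over both PLAGL1 and H3K4me3 and 5.31 over PLAGL1 only. They were 5.39 over H3K4me3 only and 4.73 over neither. The part of the mark in this order was not tested.

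**Figure D3:**
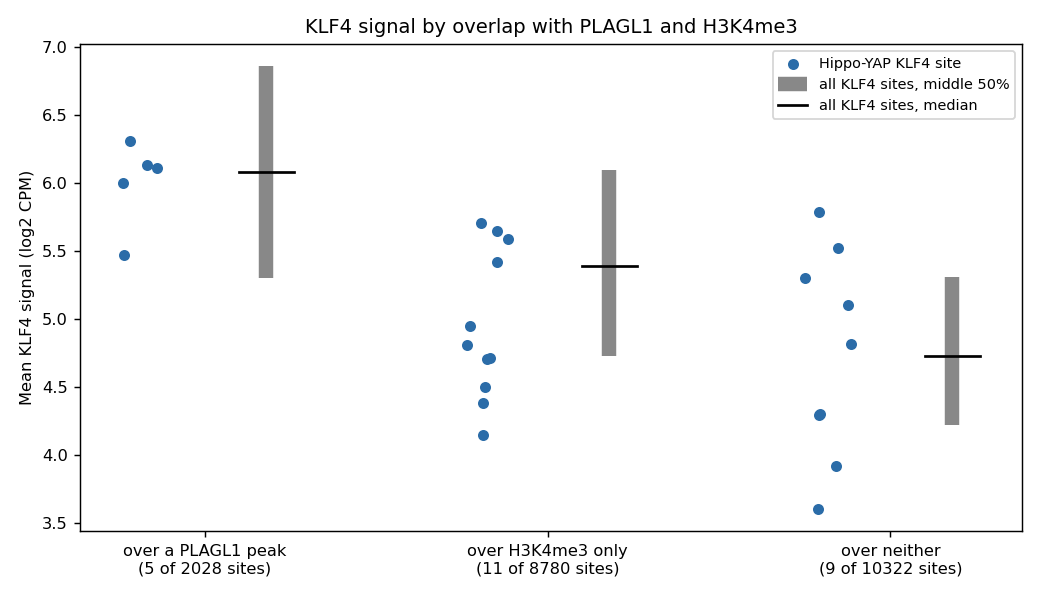
Mean KLF4 signal over 6 libraries (log2 CPM, y axis) of the 25 Hippo-YAP sites in the authors' deposited table (blue points, spread sideways only to separate them) by overlap with PLAGL1 and H3K4me3, beside the median (black line) and middle 50% (grey bar) of all KLF4 sites in the same class. The 5 points over PLAGL1 reach from 5.47 to 6.31 and the 9 points over neither from 3.60 to 5.79.

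Away from the starts, KLF4 often coincided with weak H3K4me3 peaks. Of 9 H3K4me3 peaks more than 3 kb from the TSS of these genes, 6 overlapped a KLF4 site, against 44.3% of all such peaks. The 9 had scores from 37 to 193, with a median of 71 against 82 for all distal peaks. Ccn1 had 2 of the 6, centred 35166 and 41996 bp before its TSS (chr3:145390709-145391104, score 71, and chr3:145397621-145397851, score 42). Their KLF4 sites had mean log2 CPM of 4.72 and 4.15 in the authors' deposited table. The others lay in Tead1 intron 1, Tead3 intron 2, Tead4 intron 1 and Lats2 intron 2, where the Lats2 site reached 5.59 in the authors' deposited table (chr14:57944503-57945302).

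Of the 25 KLF4 sites, 5 lay over a PLAGL1 peak, against 9.6% of all KLF4 sites, and 16 over an H3K4me3 peak of any gene, against 48.5%. This share follows in part from the choice of sites next to peaks. In all, 14 overlapped a PLAGL1 or H3K4me3 peak of the 10 genes and 11 were only near one. Tead1, Tead3 and Lats2 had 5 each, Tead4 4, Ccn1 3, and Wwtr1, Tead2 and Amotl2 1 each. Both Tead3 sites more than 20 kb after its TSS lay in the H3K4me3 peak of the ribosomal protein gene Rpl10a, a neighbour, and so are near Tead3 by position only. The site farthest from a member peak inside the 20 kb limit was 13.8 kb away, at Lats2 (log2 fold change -0.12, mean log2 CPM 4.29 in the authors' deposited table). The nearest outside was 21.4 kb away, at Tead2 (0.07 and 6.48 in the authors' deposited table).

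The design's main comparison set KLF4 occupancy in Plagl1-deficient cells against control cells, and KLF4 at the Hippo-YAP genes showed no called difference. By the authors' edgeR test, 0 of the 25 sites had an adjusted p under 0.05, against 0.0473% of all sites, and 1 of 25 had an unadjusted p under 0.05, against 6.46% over the whole of the authors' deposited table. No second tool could be run, since the authors' deposited table holds no values per library. Nor does it name the numerator, so the group with more KLF4 is unknown at each site and only signs can be given. Negative values made up 16 of the 25 log2 fold changes in the authors' deposited table, against 49.7% of all sites, and the median of the 25 was -0.04, against 0.00 for all sites.

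At the starts, fold changes were close to 0 at most genes. The TSS site of Tead3 had a log2 fold change of -0.00041 (approximate 95% interval -0.23 to 0.23) in the authors' deposited table. That of Amotl2 had 0.02 (-0.30 to 0.34), Tead4 -0.05 (-0.34 to 0.24) and Lats2 0.09 (-0.24 to 0.41) in the authors' deposited table. Ccn1's upstream site had -0.02 (-0.27 to 0.23) in the authors' deposited table. If these approximate intervals hold, they leave out changes of 0.5 or more in either direction at all 5 sites.

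Larger differences, still short of a call, were seen at 2 other starts. For Wwtr1 the authors' deposited table gave -0.23 (-0.49 to 0.03) at an adjusted p of 0.80. For the Tead1 site before the TSS the authors' deposited table gave -0.41 (-0.91 to 0.09) at an adjusted p of 0.83, and the one after the TSS 0.01 (-0.46 to 0.49). Over the 5 sites shared with PLAGL1 the log2 fold changes in the authors' deposited table ran from -0.23 to 0.02, with a median of -0.02, against -0.02 for all 2028 KLF4 sites over PLAGL1 peaks.

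One site stood apart. A KLF4 site centred 4152 bp after the Tead4 TSS (chr6:128273464-128273784), between the promoter peak and the weak intron 1 peak, had -0.63 on the log2 scale (-0.97 to -0.29) according to the authors' deposited table. Its unadjusted p of 0.00043 ranked 28th from the lowest among 21130 sites, and its adjusted p of 0.31 from edgeR, again by the authors' deposited table, did not pass. The site overlapped no H3K4me3 or PLAGL1 peak and had a mean log2 CPM of 5.30 in the authors' deposited table. The Tead4 sites around it, at the TSS, at 14.9 kb and at 25.1 kb, had -0.05, -0.07 and 0.01 in the authors' deposited table. The remaining sites among the 5 lowest p were at Lats2 intron 2 (-0.26, -0.57 to 0.05, adjusted p 0.82) and, besides those of Wwtr1 and Tead1, the Rpl10a promoter near Tead3 (0.16, -0.14 to 0.46, adjusted p 0.91), by the authors' deposited table.

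The interval lay inside -1 to 1 at 24 of the 25 sites and inside -0.5 to 0.5 at 14, with standard errors derived from the authors' deposited table. The exception at the wider limits was a weak site 64.5 kb before the Tead1 TSS, with -0.26 (-1.01 to 0.49) in the authors' deposited table. The median standard error from that table was 0.185 at the 25 sites, against 0.189 over all sites. Intervals of this width were therefore not particular to the Hippo-YAP sites. At Gm15270, which overlaps the Ccn2 locus in GRCm38.p6, the authors' deposited table gave 0.19 (-0.15 to 0.54) with an edgeR adjusted p of 0.91.

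**Figure D4:**
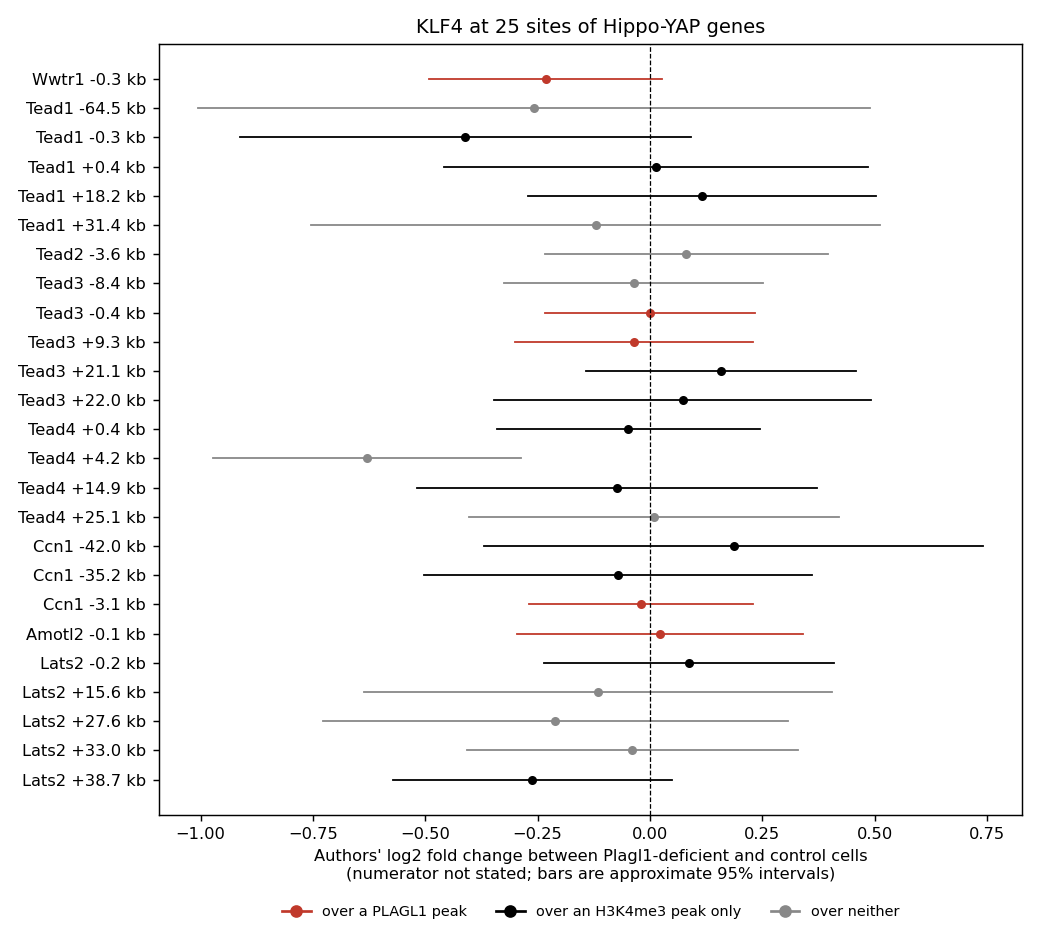
Log2 fold change of KLF4 between Plagl1-deficient and control cells (x axis, 3 libraries each, from the authors' deposited table, with the numerator not stated) at the 25 sites, ordered by gene and named by the distance of the site's centre from the TSS, with approximate 95% intervals and colours for overlap with PLAGL1 and H3K4me3. The Tead4 site at 4.2 kb, with -0.63, is the only one whose interval leaves out 0.

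Other genes of the pathway were described from a list of 47. H3K4me3 lay near the TSS of 42 of them, PLAGL1 near 6 and KLF4 in the TSS peak of 31. As shares these were 89.4% marked, against 51.3% of protein-coding genes, and 12.8% with PLAGL1, against 5.82%. Among H3K4me3-marked protein-coding genes 10.3% had PLAGL1, which is the nearer comparison because most of the list was marked. KLF4 lay at 73.8% of marked genes, against 68.5% of all marked genes, so the KLF4 share was near that of other genes. The 14 kinase and scaffold genes, which restrain YAP, were all marked with a median score of 1082.5, and 13 had KLF4 (92.9%). Over all marked protein-coding genes the median score was 850, and 68.5% had KLF4. The highest scores in the whole list were at the kinase gene Lats1 (1804), the kinase activator gene Mob1a (1410) and the upstream kinase gene Taok1 (1321). PLAGL1 peaks lay at 3 of the 14, Mob1a (score 47), Stk3 (30) and Stk4 (21), against 10.3% of all marked genes, and Stk3 and Stk4 encode the kinases MST2 and MST1.

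Among 11 junction and retention genes 9 were marked (81.8%), 7 had KLF4 (77.8% of marked) and 0 had PLAGL1, with Amot and Fat1 unmarked. Over all protein-coding genes 51.3% were marked, 5.82% had PLAGL1, and 68.5% of marked genes had KLF4. Of 4 TEAD cofactor genes Vgll3 and Vgll4 were marked, each with KLF4, and Vgll1 and Vgll2 were not. The 18 further target genes had lower scores, with a median of 587 over 17 marked genes and Ankrd1 unmarked. KLF4 lay in the TSS peak of 9 of them (52.9% of the marked ones, against 68.5% of all marked genes). PLAGL1 lay near the TSS of 3 of the 18 (16.7%), against 5.82% of protein-coding genes and 10.3% of marked ones. Among these were Axl (score 50), which encodes a receptor kinase, and Dlc1 (40), which encodes a GTPase-activating protein. Of the 34 KLF4 sites in TSS peaks of the 47 genes, 0 had an adjusted p under 0.05 by edgeR in the authors' deposited table, against 0.0473% of all sites. By the same test 0 of the 34 had an unadjusted p under 0.05, against 6.46% of all sites. The lowest was at Taok2 (log2 fold change 0.22, -0.03 to 0.47), where the authors' deposited table gave an adjusted p of 0.80.

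Likeness to other genes was measured for Tead3 and Wwtr1 as the distance between percentiles of the H3K4me3 score, PLAGL1 score and KLF4 mean signal near the TSS, over 3 assays and 1138 genes with all of them. Nearest to Tead3 (percentiles 74.2, 73.2 and 85.7) were Khdrbs1 at a distance of 4.61 and Gpsm1 at 5.57. Nearest to Wwtr1 (55.8, 70.4 and 79.4) were Stag1 at 2.11, Rpp40 at 4.64 and Txnrd1 at 6.22.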

How the data were processed

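Tools listed in the submitters' processing notes, in no stated role, are MACS3 3.0.2, HOMER 4.11.1, edgeR 4.2.0, Trim Galore 0.6.10, SAMtools 1.21, DiffBind 3.16.0, Bowtie2 2.5.4, deepTools 3.5.5 and GATK 4.5.5.0; the build listed is mm39. Handling of duplicates and scaling between libraries: not given in the sources used here. PLAGL1 and H3K4me3 peaks carry the authors' peak score, gene name, annotation and distance to the TSS, per the file headers. The authors deposited KLF4 mean signal as log2 CPM, fold change as log2, and a test score (F) with p-value and adjusted p-value for each consensus site. The adjusted p-value equals a Benjamini-Hochberg adjustment over all sites. The edgeR test itself is the authors', per the file name. With no values per library, no count was refitted.

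Overlap meant at least 1 bp. TSS positions in mm39 were computed from the authors' distances. Standard errors were taken as the absolute log2 fold change over the square root of F. Intervals came from the degrees of freedom implied by F and p (median 87.6). These degrees of freedom exceed what 6 libraries alone give at 1 site, so the intervals are approximate. Simulated data checked the arithmetic only, since their F and p were built with the same formulas. A KLF4 site went to the gene of the nearest member peak. Named were all 10 genes, every PLAGL1 peak, the leading TSS H3K4me3 peak of each gene, overlapping KLF4 sites, the 5 KLF4 sites of lowest p, and, in the pathway list, genes with PLAGL1, the 3 highest and the unmarked. Values of some genes that this rule names are not reported here. The 10 genes and all lists were chosen with earlier results of these data known. Python 3.11.15, pandas 2.3.3, numpy 2.4.6, scipy 1.17.1 and matplotlib 3.10.9 were used. Symbols and promoters came from RefSeq GRCm38.p6, whose coordinates were not converted to mm39. The files hold 0 columns of further samples.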

Additional observations from a re-analysis of the deposited data

How the results depend on the processing

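Of 29 alternative settings, 27 left a result within 1.5 times its value or on the same side of its threshold. Part of these 27 was fixed in advance. Adjusting p anew cannot change a log2 fold change, and centring on the median of all sites shifted each by only 0.0013. With 0.31 as the lowest adjusted p of the 25 sites, a limit of 0.1 could call none. The count of genes with a PLAGL1 peak near the TSS was 2 in place of 4 when only the upper 50% of scores was used, and the KLF4 sites numbered 14 in place of 25 when only sites overlapping a peak of these genes were kept, since both settings drop members by construction. A distance of 1 kb gave 8 marked genes and 3 with PLAGL1. Counting the Gm15270 peak for Ccn2, a setting chosen after seeing the data, gave 10 marked genes and 8 with KLF4. At an adjusted p under 0.1, and with p adjusted over the 20801 sites outside the sex chromosomes and chrM, 0 of the 25 KLF4 sites were called; the adjusted p of the Tead4 site was then 0.42 over those sites, against 0.31 as deposited. No paired analysis was possible because the deposited KLF4 table has no values per library, and for the same reason leaving out each replicate in turn was not run. PLAGL1 and H3K4me3 rest on 1 library each, so a score near the lowest in the list, as at Ccn1 and Amotl2, has no replicate behind it.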

Other observations

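Among the other genes of the pathway, Gadd45b, Axl and Vgll4 had more than 1 PLAGL1 peak under their names, and they were looked at after these counts were seen. Of the 2582 genes named in the list, 524 had 2 or more, so a second peak was not rare. Gadd45b, a stress-induced gene, had 5 of the 3463 peaks; 44 of 2582 genes named in the list had 5 or more. None was within 3 kb of its TSS: 4 lay between 4.07 and 6.57 kb after it, with scores from 22 to 39 and no overlap with H3K4me3 or KLF4, and 1 lay 25.7 kb away in an intron of another transcript, over a KLF4 site. Axl had a second peak in intron 4 (score 22), over both H3K4me3 and KLF4, and Vgll4 had one in intron 3 with a score of 69 over both H3K4me3 and KLF4 and one in intron 2 over neither (47).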
